A study of Mus musculus with 2 samples.

Results

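Immediate early, AP-1 and dual specificity phosphatase genes were examined in a chromatin immunoprecipitation sequencing (ChIP-seq) peak list for Nr4a2 (Nurr1). They are called early genes below, which names the set and not how each gene is induced. Nr4a2 is an orphan nuclear receptor that is itself the product of an immediate early gene. The set held 38 genes of 21887 protein-coding genes on chromosomes 1 to 19, X and Y. It comprised the FOS, JUN, ATF, BATF and small MAF genes of the AP-1 family, the EGR and KLF zinc finger genes, 9 dual specificity phosphatase (DUSP) genes and 8 other early response genes. The genes were chosen by family and function while the places of peaks in this same list, among them those at Jun and Dusp5, were already known. Peak positions are therefore given as a description, with no test. All 38 genes were found by symbol among RefSeq records of GRCm38.p6, the assembly that mm10 names.

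The cells were BV2, an immortalised mouse microglial line, with 1 library of DNA recovered with an anti-Nr4a2 antibody and 1 of input DNA. Per the labels' protocols, a commercial kit that fragments chromatin with an enzyme was used. The names of both libraries in the file header carry the tag H2O2, while the labels state no treatment, and no other group of cells was analysed here. No expression values were used here, so neither the identity of the cells nor whether the early genes were being transcribed could be checked. With 1 library of each kind, no value below carries a measure of variation between cultures.

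Immediate early genes are switched on within minutes of a growth, stress or inflammatory signal without the need for protein synthesis. Mitogen-activated protein kinases (MAPKs) and calcium signals act on factors already bound at these genes, chiefly SRF with its ternary complex partners at CArG boxes and CREB at cyclic AMP response elements (CREs). The products include AP-1, a dimer of FOS, JUN and related leucine zipper proteins, and the DUSPs, which remove phosphate from MAPKs and so close a feedback loop. In microglia and macrophages these genes form the earliest layer of the response to inflammatory stimuli.

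After duplicate removal, 20365794 ChIP tags and 22520884 input tags remained, and 7652 of the 7680 deposited peaks lay on the chromosomes used. Each peak carries the authors' values: the pileup (ChIP tags over the summit), the fold enrichment of that pileup over a local background, and a q-value given as −log10 q, where 1.30 corresponds to a q of 0.05. The median peak had 10 tags and a fold of 3.59, and 50.5% of peaks reached a q of 0.05 or lower. A pileup of 10 tags has an exact Poisson 95% interval of 4.80 to 18.4, which covers counting error only.

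Peaks at the early genes themselves were counted first, beside the shares of all coding genes. Dusp5 and Jun had a summit within 1000 bp of an end of the gene, which is 2 of 38 genes (5.26%), beside 2.36% of all coding genes. Dusp10 had a summit inside the gene, which brought genes with a peak at an end or inside to 3 of 38 (7.89%), beside 12.6%. These same 3 genes were the only members with a summit within 10 kb of an end, beside 12.5% of coding genes. Just inside the 1000 bp limit lay Jun at 681 bp, and the closest gene outside it was Dusp10 at 3541 bp.

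Assignment to the nearest coding gene, by distance from the summit to the nearer gene end, widened the count. Fos, Fosl2, Jun, Klf6, Dusp1, Dusp5, Dusp10, Ier3, Ier5 and Myc each took 1 peak or more, which is 10 of 38 genes (26.3%) beside 21% of coding genes. Together they took 31 peaks, of which Myc alone took 17. The count depends on the strength required. With a q of at most 0.05 it was 6, namely Fos, Jun, Dusp1, Dusp5, Dusp10 and Myc, beside 12.8% of coding genes. With a q of at most 0.01 it was 3, Fos, Dusp1 and Myc, beside 4.68%.

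Early genes differ from the average gene in size and surroundings, so the counts were also set beside genes of like territory and local peak density. A gene's territory is the stretch over which its ends are the nearest coding gene ends, and its median was 43.9 kb for the 38 genes and 46.3 kb for all coding genes. The 5 Mb bin of an early gene held a median of 26 peaks, against 14 for all coding genes. Applying the shares seen in coding genes of the same decile of territory and the same decile of bin density gave 10.1 genes nearest to a peak, where 10 were observed. For gene-end peaks it gave 1.26 (2 observed), for a peak at an end or inside 6.23 (3 observed), and for a summit within 10 kb 5.94 (3 observed). Gene length was not matched, and the early genes are short, with a median length of 5.3 kb against 17.2 kb. Over their summed length of 0.389 Mb they held 2 summits, or 5.14 per Mb (exact Poisson 95% interval 0.623 to 18.6), and all coding genes held 3.40 per Mb.

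**Figure D1:**
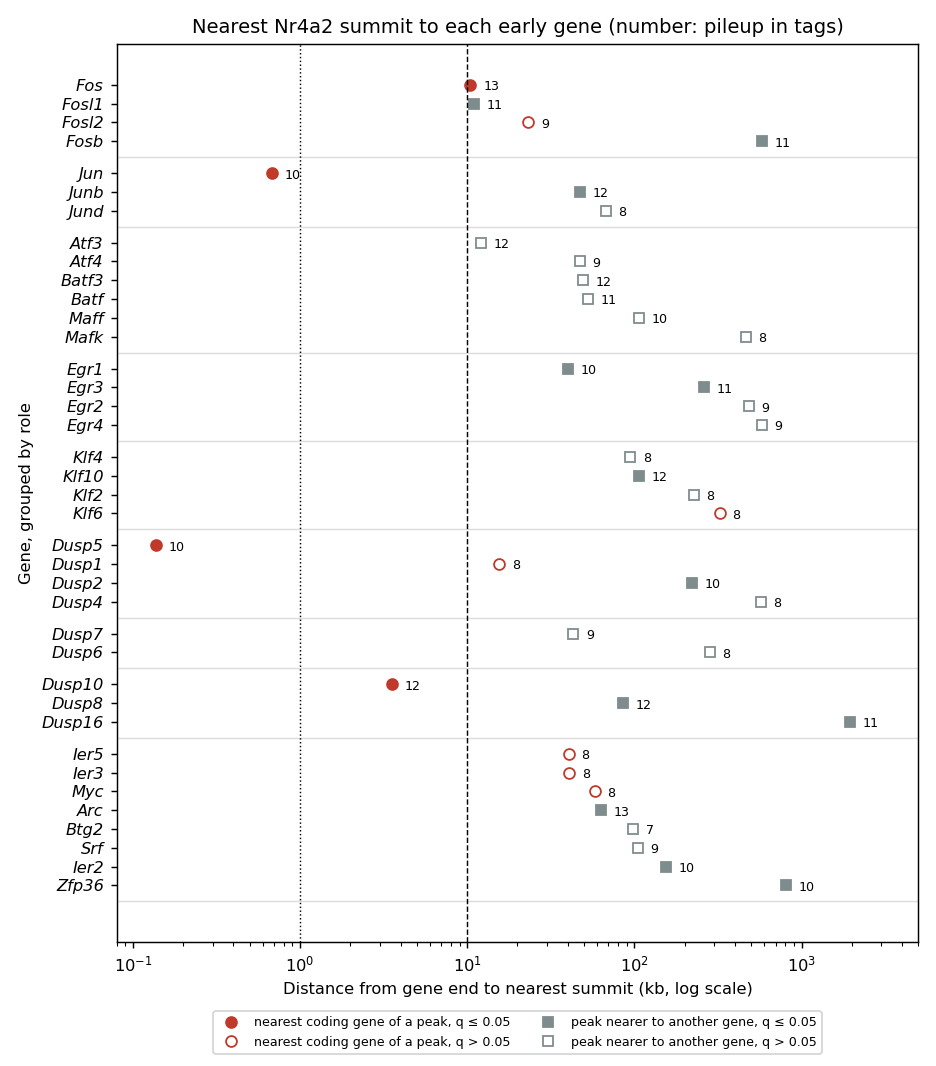
Distance from the nearer end of each of the 38 genes to its nearest summit, in kb on a log axis, with genes grouped by role and the pileup in tags beside each point. Circles mark genes that are the nearest coding gene of a peak, squares those whose nearest summit lies closer to another gene, filled symbols a q of at most 0.05, and the lines 1 and 10 kb; only Dusp5, Jun and Dusp10 lie left of 10 kb.

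The median distance from an early gene to its nearest summit was 76.4 kb, with quartiles of 40.6 and 252.1 kb, and for all coding genes it was 100.4 kb, with quartiles of 28.9 and 323.4 kb. A summit lay within 50 kb of 15 of the 38 genes, beside 34.9% of coding genes, and within 100 kb of 22, beside 49.9%. The range ran from 0.1 kb at Dusp5 to 1944.0 kb at Dusp16.

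**Figure D2:**
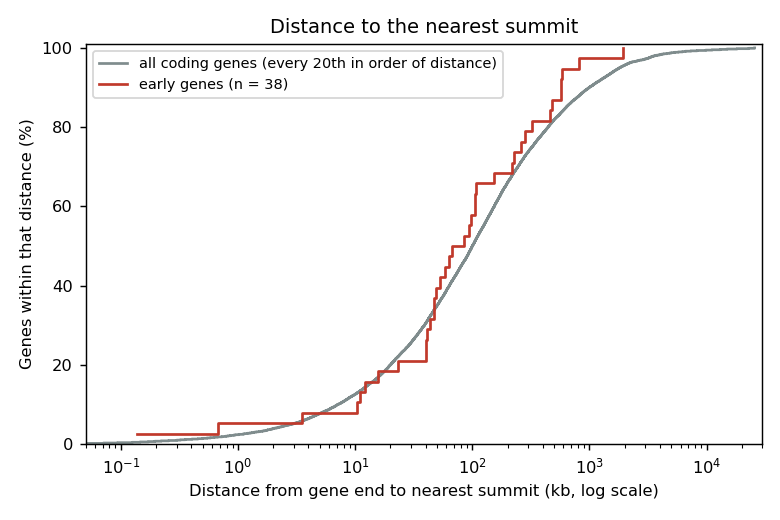
Cumulative share of genes, in percent, whose nearest summit lies within the distance on the x axis, in kb on a log axis, for the 38 early genes (red) and for all coding genes (grey). The curves run close together, with medians of 76.4 and 100.4 kb.

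Of the JUN genes, Jun had a peak beside its start. Jun, which encodes the AP-1 subunit c-Jun, lies at chr4:95049036-95052222 on the minus strand (mm10). The peak at chr4:95052843-95053006 had 10 tags, a −log10 q of 1.39 and a fold of 3.95. Its background of 1.786 tags was the lowest value in the list. The summit lay 681 bp upstream of the RefSeq start of Jun and inside Junos, a long non-coding RNA gene next to it. A summit closer to an end was found for 1.8% of coding genes. Jun and Dusp5 had the closest summits of the 38 genes, and their peaks were known beforehand, so such shares do not measure rarity. Junb and Jund, which encode the other JUN proteins, had none nearby. The summit nearest to Junb was 47.3 kb away inside Mast1, a kinase gene, and that nearest to Jund was 67.5 kb away inside Gdf15, a stress-induced cytokine gene, 0.9 kb from an end of Gdf15. The latter peak was weak, with 8 tags and a q above 0.05 (−log10 q of 0.76).

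The FOS genes had no peak at an end or inside, but Fos had a peak of above-median height nearby. Fos, which encodes the AP-1 subunit c-Fos, lies at chr12:85473890-85477274 on the plus strand. The peak at chr12:85487714-85487877 had 13 tags, a fold of 4.46 and a −log10 q of 2.18, with its summit 10.5 kb beyond the downstream end and inside no gene record. At Fosl2, which encodes FRA-2, the peak at chr5:32181016-32181179 was 23.2 kb beyond the downstream end, with 9 tags, a fold of 3.59 and a −log10 q of 1.08. A long non-coding RNA gene, Gm36732, lay closer to that summit, at 1.17 kb. Fosl1, which encodes FRA-1, had 3 summits within 50 kb, all nearer to other genes. The closest was 10.9 kb from Fosl1 and inside Ctsw, a protease gene, where a second peak of 12 tags and 4.67-fold lay 11.3 kb from Fosl1. At the other extreme the nearest summit to Fosb was 576.6 kb away, inside Psg22.

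The sequences directly before the starts of Jun and Fos are shown because the Jun summit lies upstream of that start while the Fos summit lies beyond the other end of the gene. Each is the 250 bases before the RefSeq start, 5′ to 3′ on the strand of the gene, from GRCm38.p6, at chr4:95052223-95052472 (minus strand) for Jun and chr12:85473640-85473889 (plus strand) for Fos. Capitals mark matches on either strand to the words listed further on, here the CRE core TGACG and the TATA word TATAAA.
Jun: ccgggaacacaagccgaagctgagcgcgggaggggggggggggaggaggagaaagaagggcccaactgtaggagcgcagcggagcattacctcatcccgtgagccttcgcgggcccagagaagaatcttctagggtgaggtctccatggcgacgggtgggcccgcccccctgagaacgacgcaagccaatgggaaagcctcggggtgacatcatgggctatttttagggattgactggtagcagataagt
Fos: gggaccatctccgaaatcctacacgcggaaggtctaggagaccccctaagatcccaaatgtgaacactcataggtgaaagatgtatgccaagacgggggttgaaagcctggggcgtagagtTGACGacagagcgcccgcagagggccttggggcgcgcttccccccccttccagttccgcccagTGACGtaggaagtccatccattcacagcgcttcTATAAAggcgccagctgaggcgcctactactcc
The Jun stretch holds none of the words searched. Only exact words were searched, and the stretch does hold tgacatca, which is close to the CRE word TGACGTCA. The Fos stretch holds the CRE core at −129 to −125 and at −66 to −62 and the TATA word at −33 to −28, counted back from the start, with −1 the base before it. Neither stretch overlaps a called peak, since the Jun peak begins 621 bp before the start.

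The remaining leucine zipper genes were not the nearest coding gene of any peak. Each territory corresponds to between 0.03 (Atf4) and 0.37 (Batf) peaks at the rate of its chromosome, so this lack carries little information. Atf3, a stress-induced repressor and activator, and Batf3, a factor of dendritic cell development, lie near each other on chromosome 1 and shared their nearest summit. That peak at chr1:191158013-191158246 was 12.1 kb from Atf3 and 49.2 kb from Batf3, and nearer to Fam71a, at 4.4 kb. It had 12 tags over a background of 3.737 tags, the highest background among the nearest peaks of the 38 genes, a fold of 2.74 and a −log10 q of 0.76. Batf, a partner of JUN proteins in lymphocytes, had its nearest summit at 53.0 kb, inside Jdp2, which encodes an AP-1 repressor. Atf4, the effector of the integrated stress response, had its nearest at 47.1 kb inside Mgat3. The small MAF genes Maff and Mafk, whose products pair with NRF2 on antioxidant response elements, were 106.9 and 464.7 kb from a summit, inside Pick1 and Mad1l1. None of the nearest peaks of these 6 genes had a q of at most 0.05.

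DUSP genes provided the closest summit and the largest fold among peaks assigned to the set. Dusp5, which encodes a nuclear phosphatase selective for ERK, lies at chr19:53529145-53541809 on the plus strand. The peak at chr19:53529195-53529673 was 479 bp wide against a median of 190 bp, and its summit was 138 bp downstream of the RefSeq start, inside the gene. It had 10 tags over a background of 1.869 tags, a fold of 3.83 and a −log10 q of 1.39. A summit closer to an end was found for 0.4% of coding genes, which, as for Jun, does not measure rarity. A second peak assigned to Dusp5 lay 63.7 kb upstream, with 11 tags, a fold of 4.31 and a −log10 q of 1.76. It was 0.69 kb from Mirt1, a long non-coding RNA gene.

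Dusp10, which encodes a phosphatase for JNK and p38, lies at chr1:184034381-184075636 on the plus strand and was the nearest coding gene of 4 peaks. The peak at chr1:184037796-184037959 had its summit 3541 bp downstream of the start, inside the gene, with 12 tags over a background of 2.713 tags, a −log10 q of 1.39 and a fold of 3.50. The others lay 18.2, 46.4 and 141.4 kb beyond the downstream end, with 9, 10 and 9 tags and folds of 3.56, 3.95 and 3.56. Of these, the peak at 46.4 kb had a q of at most 0.05. A territory of 367.2 kb at the peak rate of chromosome 1, 4.46 per Mb, corresponds to 1.64 peaks. The 5 Mb bin of Dusp10 held 37 peaks, a higher rate than that of the chromosome, so the local rate corresponds to more.

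Dusp1, which encodes MKP-1, the phosphatase that limits p38 and JNK signals in macrophages, had peaks on either side. Dusp1 lies at chr17:26505591-26508472 on the minus strand. The peak at chr17:26484696-26484867 had 15 tags over a background of 2.076 tags, a −log10 q of 3.28 and a fold of 5.20. It was the only assigned peak of the set with a q of at most 0.001. The summit lay 20.8 kb beyond the downstream end of Dusp1 and inside Gm34455, a long non-coding RNA gene. The other, 15.6 kb upstream of the start, had 8 tags, a fold of 3.23 and a −log10 q of 0.76.

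The remaining 6 DUSP genes were the nearest coding gene of no peak. Apart from Dusp4, with 1.43, their territories correspond to between 0.03 (Dusp16) and 0.13 (Dusp6) peaks at the rates of their chromosomes. For such low values a lack of assigned peaks carries little information. Dusp7, a cytoplasmic ERK phosphatase gene, had a summit at 43.2 kb inside Poc1a, and Dusp8, a JNK and p38 phosphatase gene, had one at 85.3 kb. Dusp2, with its nearest summit inside Ncaph, Dusp6 and Dusp4 were 219.7, 281.4 and 571.1 kb from a summit, and Dusp16 was 1944.0 kb from one. The 5 Mb bins of Dusp4, Dusp16 and Dusp6 held 0, 1 and 3 peaks.

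The 250 bases before the RefSeq start are shown for the 3 assigned DUSP genes, since their peaks lie on different sides of that start. They are at chr19:53528895-53529144 (plus strand) for Dusp5, chr1:184034131-184034380 (plus strand) for Dusp10 and chr17:26508473-26508722 (minus strand) for Dusp1, with matched words in capitals as before.
Dusp5: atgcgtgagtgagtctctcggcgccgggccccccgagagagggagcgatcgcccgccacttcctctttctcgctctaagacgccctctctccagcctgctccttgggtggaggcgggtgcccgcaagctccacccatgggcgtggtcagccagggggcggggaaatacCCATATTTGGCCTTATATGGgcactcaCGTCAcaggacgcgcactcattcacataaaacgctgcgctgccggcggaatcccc
Dusp10: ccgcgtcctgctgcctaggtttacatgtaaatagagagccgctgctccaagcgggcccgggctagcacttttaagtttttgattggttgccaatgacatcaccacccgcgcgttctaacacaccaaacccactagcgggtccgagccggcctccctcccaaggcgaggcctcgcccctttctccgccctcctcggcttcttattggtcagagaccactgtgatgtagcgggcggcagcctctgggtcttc
Dusp1: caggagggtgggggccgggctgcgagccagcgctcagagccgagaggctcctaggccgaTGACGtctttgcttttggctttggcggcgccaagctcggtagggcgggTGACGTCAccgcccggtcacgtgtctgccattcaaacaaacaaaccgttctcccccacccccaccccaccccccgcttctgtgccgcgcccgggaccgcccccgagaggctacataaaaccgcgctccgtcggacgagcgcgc
In Dusp5 the capitals mark 2 adjoining CArG boxes, the binding word of SRF, CCATATTTGG at −82 to −73 and CCTTATATGG at −72 to −63, and a CRE core on the opposite strand at −55 to −51. The Dusp5 peak starts 50 bp after the gene start, so these words lie before the called interval. In Dusp1 they mark a full CRE, TGACGTCA, at −143 to −136 and a CRE core at −191 to −187. The Dusp10 stretch holds none of the words searched, though it too holds the near match tgacatca.

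**Figure D3:**
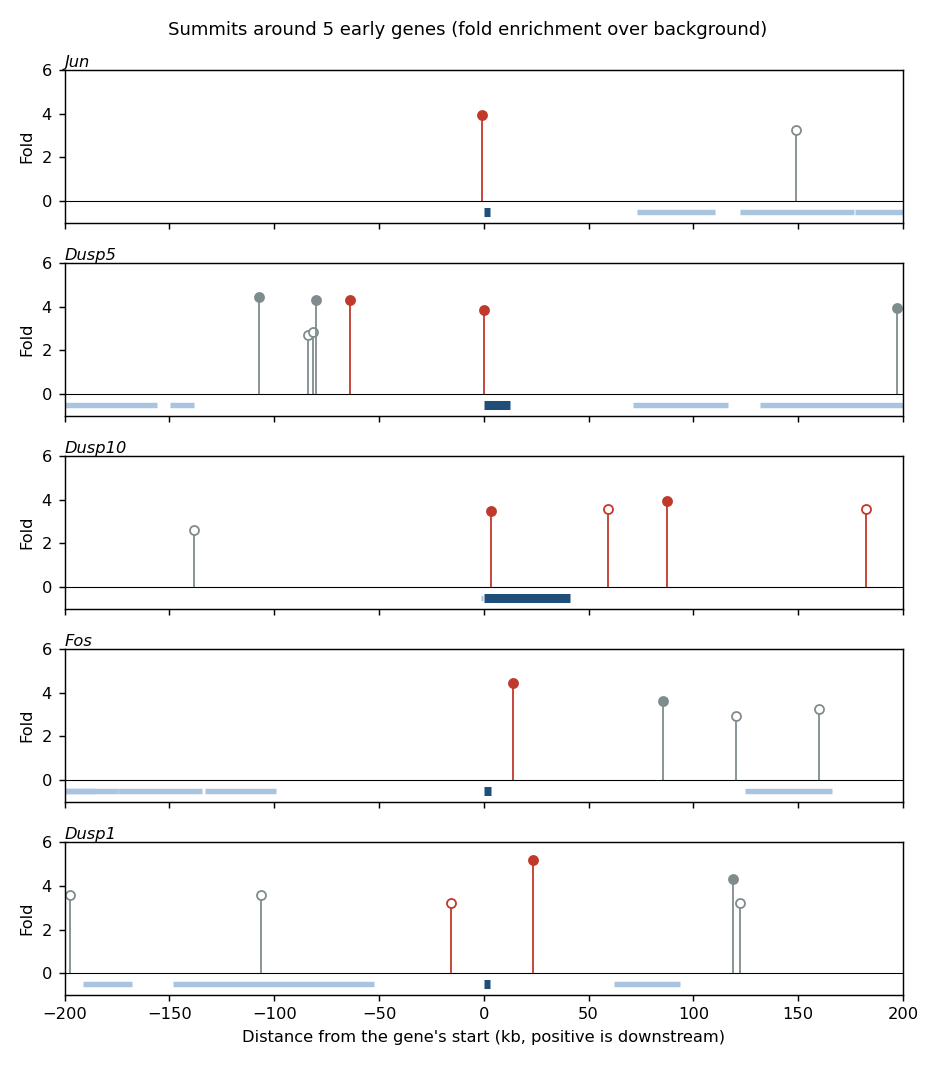
Summits within 200 kb of the starts of Jun, Dusp5, Dusp10, Fos and Dusp1, at their distance in kb (positive is downstream), with height giving the authors' fold enrichment. Red marks summits whose nearest coding gene is the named gene, grey those nearer to another, filled points a q of at most 0.05, the dark bar the gene and pale bars other coding genes; the highest of the red points is the 5.20-fold peak downstream of Dusp1.

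The EGR genes, which encode zinc finger factors induced by ERK signalling, had no assigned peak. Their territories, from Egr1 to Egr4, correspond to 0.03, 0.06, 0.03 and 0.01 peaks at the rates of their chromosomes. A lack of assigned peaks therefore carries little information on this family. Egr1 was closest to a summit, at 39.9 kb, and that peak of 10 tags and 3.95-fold lay inside Etf1, a translation termination factor gene. Egr3, Egr2 and Egr4 were 260.7, 483.4 and 580.1 kb from a summit, inside Rhobtb2, Reep3 and Add2. Their 5 Mb bins held 7, 3 and 2 peaks, and that of Egr1 held 6.

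Of the KLF genes, Klf6, a zinc finger transcription factor gene, was the nearest coding gene of 1 peak, but the summit was 323.0 kb away. That peak had 8 tags, a fold of 3.23 and a −log10 q of 0.76. Klf6 has a territory of 973.9 kb, which at the rate of chromosome 13 corresponds to 3.01 peaks. Klf4, Klf10 and Klf2 were 94.5, 106.6 and 226.4 kb from a summit. The summit nearest to Klf2, a restraint on myeloid inflammation, lay inside Med26, a Mediator subunit gene, 0.3 kb from an end.

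Myc, which encodes the growth regulator c-MYC, was the nearest coding gene of 17 peaks, more than all other members together. Myc lies at chr15:61985341-61990361 with the flanking coding genes A1bg and Gsdmc 1064.1 and 1785.6 kb away, and its territory is 1.43 Mb. The peaks correspond to 11.9 per Mb of territory (exact Poisson 95% interval 6.93 to 19). Chromosome 15 held 6.38 per Mb and the 5 Mb bin of Myc, whose peaks include these 17, held 8.6 per Mb. Myc had the most peaks of the set and the interval covers counting error only, so it is no test against these rates. At the rate of the chromosome the territory of Myc corresponds to 9.13 peaks, and at the higher rate of the bin to more. None was at the gene. The closest, at chr15:61927090-61927293, was 58.1 kb from the lower-coordinate end with 8 tags, a fold of 3.23 and a −log10 q of 0.76.

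Summits assigned to Myc lay on both sides, 9 at lower and 8 at higher coordinates, and 2 were within 100 kb. The strongest, at chr15:61765850-61766046, was 219.4 kb away with 13 tags, a fold of 5.02 and a −log10 q of 2.69, and it was inside the long non-coding RNA gene D030024E09Rik. Next came a peak of 12 tags and 4.63-fold at 605.7 kb and a peak of 12 tags and 4.46-fold at 194.9 kb. On the higher-coordinate side, 2 summits were inside Pvt1, the long non-coding RNA gene that neighbours Myc, at 109.5 and 198.5 kb with folds of 3.41 and 3.20. In all, 8 of the 17 had a q of at most 0.05 and 3 a q of at most 0.01.

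**Figure D4:**
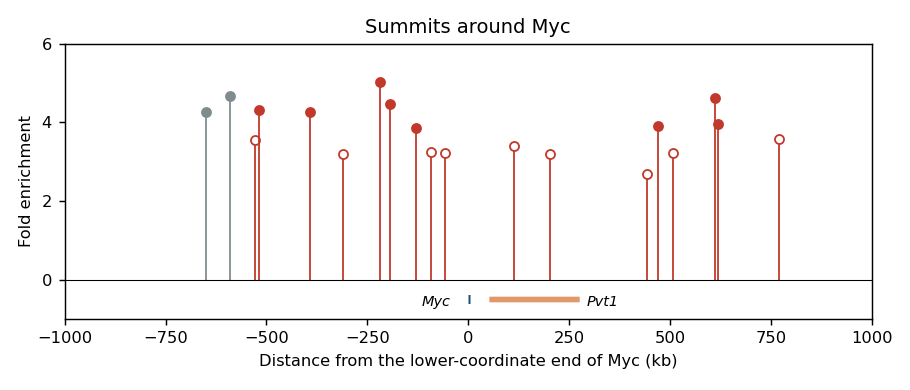
Summits within 1000 kb of the lower-coordinate end of Myc, at their distance in kb, with height giving the authors' fold enrichment. Red points are nearest to Myc among coding genes, grey points nearer to another coding gene, filled points have a q of at most 0.05, and bars mark Myc and Pvt1; the 17 red points spread over both sides and none lies at Myc.

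Ier3 and Ier5 were each the nearest coding gene of 1 weak peak. Ier3, a survival gene induced by NF-κB, had a summit 40.7 kb upstream of its start with 8 tags, a fold of 3.20 and a −log10 q of 0.76. That summit was 0.29 kb from the long non-coding RNA gene 4833427F10Rik. Ier5, which encodes a regulator of the heat shock factor HSF1, had one 40.6 kb beyond its downstream end with 8 tags, a fold of 3.19 and a −log10 q of 0.76. The latter lay inside the long non-coding RNA gene Gm41980.

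The other early response genes had no assigned peak. This too carries little information, since their territories correspond to between 0.01 (Zfp36) and 0.22 (Arc) peaks at the rates of their chromosomes. Arc, which encodes a synaptic capsid-like protein, had its nearest summit at 63.5 kb, a peak of 13 tags and 3.77-fold that was 0.4 kb from Mroh4. Btg2, an antiproliferative gene, was 98.3 kb from a summit of 7 tags and 2.87-fold, the lowest pileup among the nearest peaks, inside the long non-coding RNA gene Gm46158. Srf, which encodes the factor that binds CArG boxes, was 105.0 kb from a summit that lay 0.6 kb from Ttbk1. Ier2 was 154.2 kb from a summit inside Cacna1a, and Zfp36, which encodes the mRNA decay factor tristetraprolin, was 808.4 kb from one inside Catsperg1.

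Distances followed the uneven spread of peaks over the genome. On chromosomes above the median density of the 21 chromosomes, 8 of 23 early genes were nearest to a peak, beside 29.6% of the coding genes there, and their median distance was 53.0 kb against 56.2 kb. On the other chromosomes 2 of 15 were, beside 14%, and the medians were 260.7 and 181.2 kb. Across the 38 genes the rank correlation between peaks in the 5 Mb bin and distance to the nearest summit was -0.50 (Spearman), and across all coding genes it was -0.63. The bin can hold the nearest summit itself, so these values describe the layout of the list only. Members in dense bins also lacked assigned peaks. On chromosome 8, Junb, Jund, Klf2 and Ier2 had none in bins of 34, 43, 43 and 34 peaks. Dusp4 had none in a bin without peaks. At the rate of the chromosome, the territories of Junb, Jund, Klf2, Ier2 and Dusp4 correspond to 0.03, 0.05, 0.18, 0.07 and 1.43 peaks. On chromosome 15 Myc had assigned peaks while Klf10, Arc, Maff and Atf4 had none at 6.38 per Mb. At that rate the territory of Myc corresponds to 9.13 peaks. Those of the other genes, in that order, correspond to 0.86, 0.22, 0.14 and 0.03. At such low values a lack of assigned peaks carries little information on a gene.

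**Figure D5:**
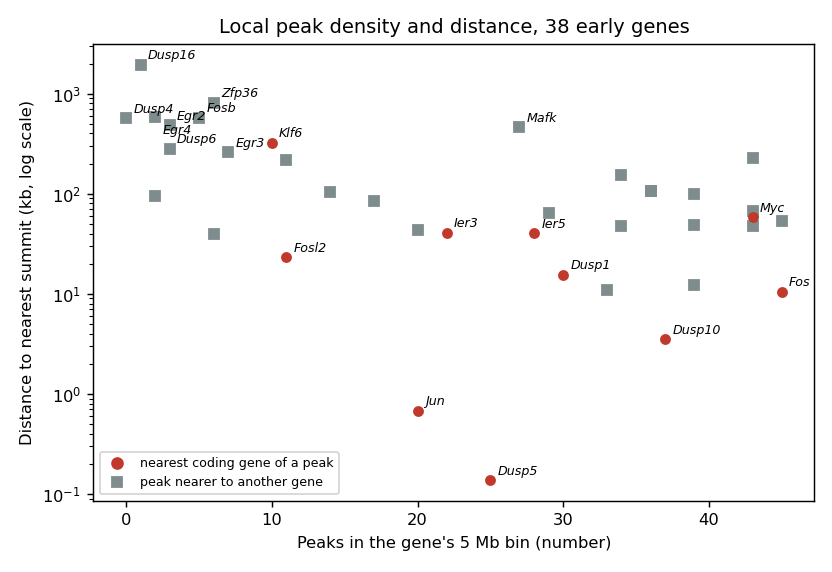
Distance from each of the 38 genes to its nearest summit, in kb on a log axis, against the number of peaks in its 5 Mb bin. Red circles are nearest coding genes of a peak, grey squares are not, and the genes over 250 kb from a summit have at most 10 peaks in their bin except Mafk, with 27.

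Peaks assigned to the early genes were like the rest of the list in strength. The 31 peaks had a median of 10 tags and a median fold of 3.59, the values also found for all 7652 placed peaks, and folds from 2.69 to 5.20. A q of at most 0.05 was reached by 15 of the 31, beside 50.5% of all peaks, and a q of at most 0.01 by 5, beside 15.3%. Without those of Myc, the other 14 peaks had a median of 9.5 tags and a median fold of 3.57. The background was at its lowest value, 1.786 tags to within 0.002, in 12 of the 31 peaks and in 49.5% of all peaks.

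Start sites could be placed for the 30 early genes with an entry in the RefSeq promoter table. Fosl1, Egr1, Egr3, Klf10, Dusp4, Ier2, Myc and Arc had no entry. Of the 30, Jun and Dusp5 had a summit within 1000 bp of a start, beside 1.74% of the 17492 coding genes with an entry. Searched on both strands in the 250 bases before each start, the words of signal-responsive promoters were frequent in these genes. A CArG box was present in 4 of 30 (Dusp5, Egr2, Srf and Zfp36), beside 1.60% of coding genes, and a full CRE (TGACGTCA) in 4 (Btg2, Dusp1, Dusp8 and Maff), beside 2.2%. The CRE core TGACG, which is also part of the full CRE, was present in 18 of 30, beside 22.6%.

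The monomer word of the Nr4a receptors, AAAGGTCA, was found in none of the 30, beside 1.39% of coding genes. The AP-1 word TGANTCA was also found in none, beside 7.19%. With shares this low, lack of a word among 30 genes carries little information on the members. The TATA word TATAAA was found in Fos and Srf, beside 13.7%. The stretches before early gene starts were richer in G and C, with a median of 65.0% against 56.4%, and the part of base composition in these shares was not tested. A match is a string of letters and not a bound site. Only exact words were counted, so lack of a word does not show that a variant of it is absent. Of the 8 genes with a CArG box or full CRE, Dusp5 and Dusp1 were nearest to a peak, beside 10 of all 38 early genes and 21% of coding genes.

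Genes around the same pathway were counted in 5 further lists, to be read beside the 2.36% of all coding genes with a gene-end peak and the 12.6% with a peak at an end or inside. Among 15 other phosphatase genes, Dusp22 and Dusp23 had a gene-end peak (81 and 182 bp from an end, 3.59- and 3.56-fold, each with 9 tags and a −log10 q of 1.08), Ppm1b had one inside, and 4 were the nearest coding gene of a peak. Among 42 other early response genes the gene-end peaks were at Sik1, a salt-inducible kinase gene (3.95-fold, 897 bp), and Trib1, a pseudokinase gene (2.96-fold, 652 bp). Their −log10 q values were 1.39 and 0.76, and 14 of the 42 genes were nearest to a peak. Klf7, Klf9 and Per1 had peaks inside. Among 20 other AP-1 and related genes none had a gene-end peak and 6 were nearest to a peak. Jdp2 and Atf6 had one inside (−log10 q of 1.08 and 0.76). The Atf6 summit was nearer to an end of Gm29733.

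Kinases and activators upstream of early genes formed the other lists. Of 37 MAPK cascade genes none had a gene-end peak and 8 had one inside: Mapk9, Map2k1, Map2k4, Map2k5, Map3k1, Sos1, Rps6ka3 and Rps6ka5. The strongest were at Sos1 (4.67-fold), a RAS exchange factor gene, and Map2k1 (4.44-fold), which encodes the ERK kinase MEK1. The Sos1 summit was nearer to an end of Arhgef33. No peak inside Map2k4 or Rps6ka3 had a q of at most 0.05. Of 23 activator genes, Crtc1, which encodes a CREB coactivator, had a gene-end peak of 12 tags and 3.91-fold 143 bp from an end and a further peak of 14 tags and 4.74-fold inside. Elk4, Mrtfa, Ep300, Nfatc2 and Nfatc3 had peaks inside, 4 of them in Nfatc2, and 9 of the 23 genes were nearest to a peak. Of the genes with inside peaks alone, only Nfatc2 had one with a q of at most 0.05. The Elk4 summit was nearer to an end of Mfsd4a. The shares of the 5 lists nearest to a peak ran from 26.7% to 39.1%, beside 21% of coding genes, and the lists differ in gene length and territory.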

How the data were processed

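Per the submitters' processing notes, reads were aligned with Bowtie2 to mm10. Peaks were called with MACS 2.1.4 on the 1 ChIP library against the 1 input library at a p-value cutoff of 0.001, per the file headers, while the notes list MACS2 2.2.6. The deposited pileup is a coverage signal, the fold enrichment divides it by the local background, a ratio with a pseudocount of 1 on each, and the −log10 p and −log10 q values are the authors' own, per the file headers. The background was recovered as (pileup + 1)/fold − 1. Summits were assigned with Python 3.11.15 and pandas 2.3.3 to gene ends (within 1000 bp), gene bodies, and the nearest of 21887 coding RefSeq records. The assignment was checked on planted summits. Start sites and the 250 bases before them came from the RefSeq promoter table (GRCm38.p6). The members and the lists were chosen with earlier results of these data known. All members are accounted for, neighbours are named where they hold a member's nearest summit, and genes of the 5 lists where they have a peak at an end or inside. Stricter q and fold limits, other windows and other definitions of the nearest gene were tried.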

Additional observations from a re-analysis of the deposited data

How the results depend on the processing

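The counts fall with the number of peaks kept. The median distance of 76.4 kb became 128.7 kb with peaks limited to a q of 0.05 or lower, 409.7 kb with 0.01 or lower and 277 kb with a fold of 4 and above, and for all coding genes it rose from 100.4 to 211.0, 787.9 and 394.4 kb. Genes nearest to a peak numbered 10, and 6, 3 and 4 under the same limits, beside 21%, 12.8%, 4.68% and 7.98% of coding genes. They numbered 4 (Fos, Dusp5, Dusp10 and Myc) when non-coding records could take a peak. No share of coding genes was computed under that definition, and the 21% above holds for coding records only. Gene-end peaks, peaks at an end or inside, and summits within 10 kb all fell to 0 with the limit of 0.01 on q and with that of 4 on fold. Only 0.384% and 0.599% of coding genes then had a gene-end peak. A gene-end count of 0 among 38 genes therefore carries no information on the members. Shares of coding genes for peaks at an end or inside and for summits within 10 kb were not computed under these limits. With a window of 500 bp the gene-end count was 1, Dusp5 alone, and within 50 kb the count of genes with a summit was 15. The share of coding genes was not computed at 500 bp and was 34.9% within 50 kb. Using the peak interval in place of the summit, a window of 3000 bp, distance 0 inside a gene, start sites only (for gene ends chosen after seeing the data) and, for counts at or near genes, a q of at most 0.05 left these counts within 1.5 times the reported value. By start site alone Dusp7 joined the nearest genes and Myc, without an entry, could not. No paired analysis was possible because each group has 1 library. The lowest pileup of a placed peak was 7 tags at the p-value cutoff of 0.001. A weaker enrichment at an early gene could go uncalled, and no peak there does not show absence of Nr4a2.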
